A study of Mus musculus with 8 samples.

Results

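The genes described here are 10 effectors and cofactors of the Hippo pathway. They are the coactivator genes Yap1 and Wwtr1 (the gene of TAZ), the transcription factor genes Tead1, Tead2, Tead3 and Tead4, the kinase genes Lats1 and Lats2, and the cofactor genes Vgll2 and Vgll3. They were named as a list by function, with earlier results of these data known, and are 10 of the 21938 protein-coding genes annotated in GENCODE vM21 on the assembled mouse chromosomes. Each gene was examined together with 20 kb on either side, and the 10 windows held 179 of the 105600 H3K56ac peaks in the merged list, or 0.170%.

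H3K56ac, acetylation of lysine 56 of histone H3, was mapped by ChIP-seq in freshly isolated mouse muscle stem cells (MuSCs), the cells that rebuild muscle fibres after injury. There were 8 libraries in 4 groups, 2 of H3K56ac and 2 of input DNA for each genotype. Control mice are named only Control in the labels. The study calls the control H3K56ac profile wild type, and elsewhere shows Sirt6 fl/fl mice without Cre as controls. Sirt6mKO mice lacked SIRT6, a deacetylase that acts on H3K56ac, and carried Sirt6 fl/fl alleles with Pax7-ICNCre, a Cre that is active in every cell of the Pax7 lineage from development onwards, so that muscle fibres also lost the gene. Both genotypes were on a C57BL/6 background, the labels give no age, and the study describes the animals behind these profiles as young adult males. The list used here gives positions only. It has no value for any library, does not separate Control from Sirt6mKO and does not name the libraries that were merged. No Sirt6mKO against Control comparison or replicate error can be had from it, the depth behind a peak cannot be read from it, and every value below is a description of the union of peaks. A wider peak in that union may be wide in every library, wide only in libraries of a single genotype, or may join narrower peaks of several libraries. These cannot be told apart. The study reports that H3K56ac peaks after loss of Sirt6 were much broader than those of other histone marks such as H3K4me3 and H3K27ac. That statement compares marks and not genotypes. It also reports more H3K56ac peaks in Sirt6mKO MuSCs than in controls. Its count for wild type MuSCs is far below the 105600 of the merged list, though the settings may differ. How much of any peak number, width or covered share below comes from the Sirt6mKO libraries is unknown.

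In the Hippo pathway, the LATS kinases phosphorylate YAP and TAZ and so keep them out of the nucleus. Unphosphorylated YAP and TAZ have no DNA-binding domain and act by binding TEAD factors, which recognise the sequence GGAATG. Read from the other strand, these letters are the core of the MCAT element found in many muscle genes. VGLL proteins bind TEAD factors too and can replace YAP and TAZ there. YAP, TAZ, TEAD and VGLL proteins are known regulators of myoblast proliferation and differentiation, and H3K56ac is found at active promoters and enhancers.

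H3K56ac lay over a large part of these genes. All 10 had a peak within 3 kb of an annotated transcription start site (TSS), against 67.8% of protein-coding genes. The widest such peak reached 5 kb at 8 of the 10 genes, against 16.5% of protein-coding genes, and 10 kb at 4 of them (Wwtr1, Tead1, Vgll2 and Vgll3), against 2.59%. At least 50% of the gene was under a peak at 5 of the 10 (Wwtr1, Tead1, Tead3, Vgll2 and Vgll3), against 9.90%. The median covered share of the gene was 49.1% over the 10 genes, with a range of 4.94% at Tead4 to 100% at Vgll2, and 7.82% over all protein-coding genes. In kilobases, peaks covered 420.0 of the 1095 kb in the 10 windows, or 38.4%. Tead1 and Wwtr1 alone held 141.7 and 91.1 of these covered kb. The median covered share of the window was 34.9% over the 10 genes and 9.53% over all protein-coding genes. The genes did not behave alike, and Tead2 and Tead4 had neither a promoter peak of 5 kb nor 50% of the gene covered. Tead4 lay below the medians over all protein-coding genes, with 4.94% of the gene and 3.96% of the window covered. Tead2 lay above them, with 11.3% and 16.2%.

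**Figure D1:**
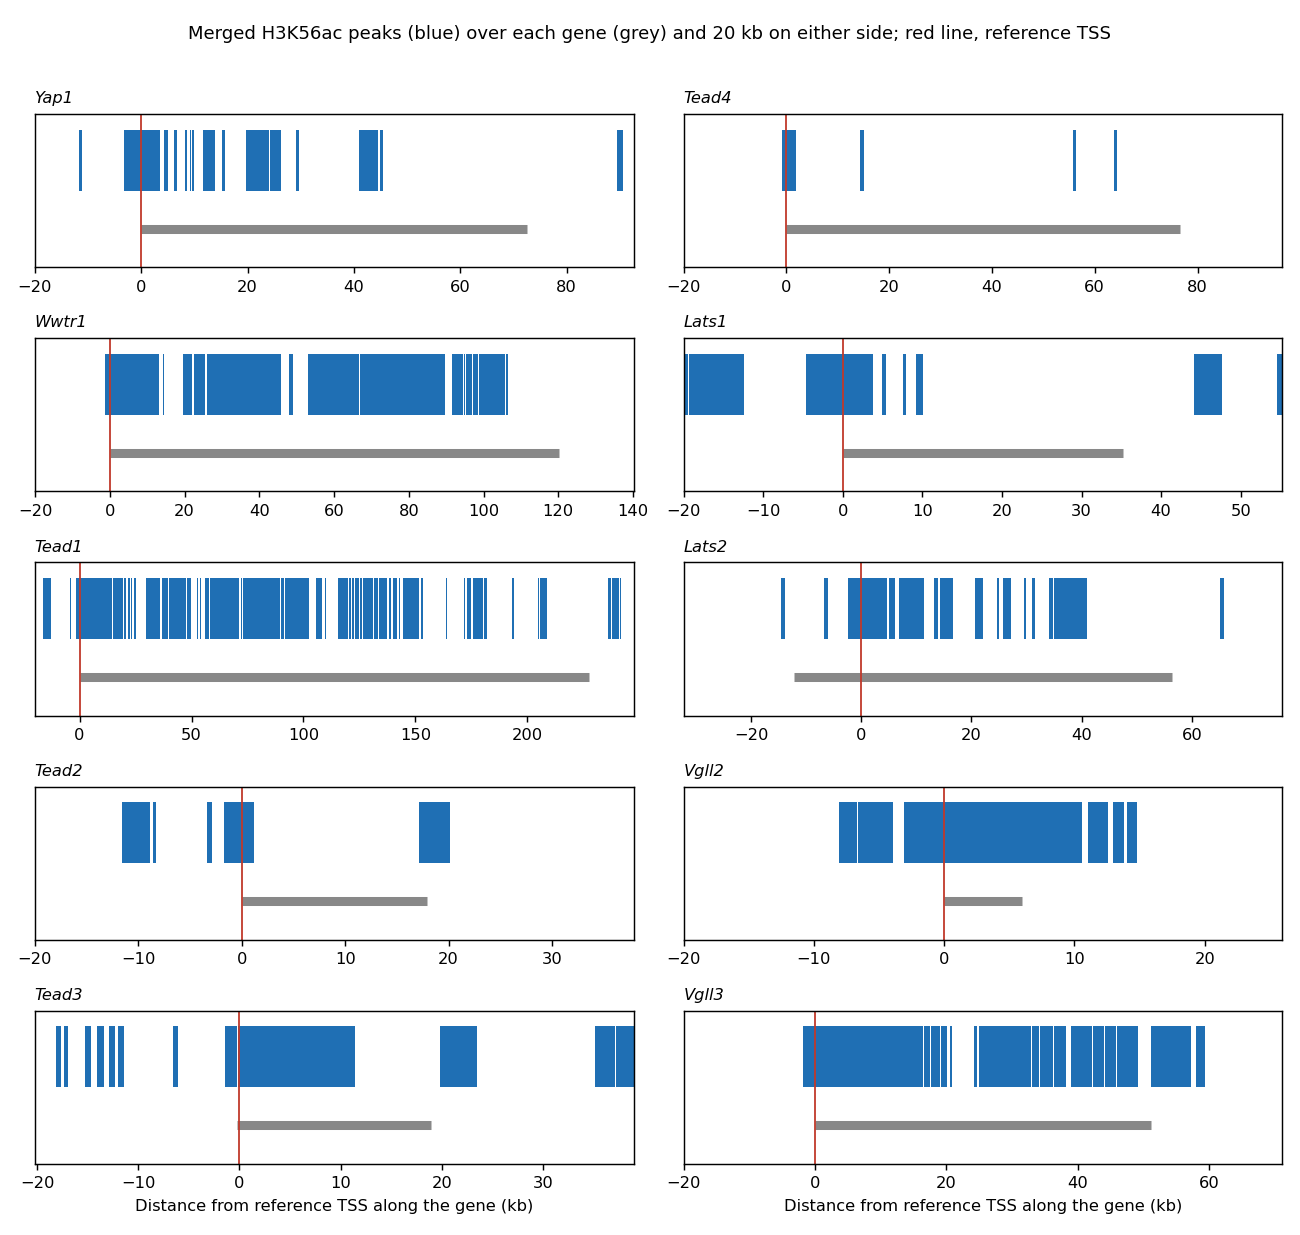
Each panel maps 1 gene. The x axis is the distance from the TSS of the reference transcript along the direction of transcription (kb), blue blocks are merged H3K56ac peaks, the grey bar is the annotated gene and the red line is the TSS. Peaks fill most of Wwtr1, Vgll2 and Vgll3, and most of the first and middle parts of Tead1. Tead4 has 4 peaks in its whole window.

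The MuSC label was checked against marker genes. The study's sort depleted cells with Sca1 (encoded by Ly6a), CD45 (Ptprc) or CD31 (Pecam1) and then took cells with integrin alpha 7 and CD34, or with a reporter driven through Pax7. All 10 MuSC markers examined (Pax7, Myf5, Itga7, Cd34, Vcam1, Calcr, Cdh15, Sdc4, Spry1 and Chrdl2) carried promoter peaks that reached 5 kb, with a median of 12834.5 bp. Among genes of other cells that a sort could hold, the endothelial gene Cdh5 and the immune genes Ptprc and Itgam had no peak in their windows. The endothelial genes Kdr and Pecam1 had promoter peaks of 1139 and 3440 bp, the immune gene Cd68 1 of 2636 bp, the fibro-adipogenic genes Pdgfra and Dcn 4396 and 5233 bp, and the mural gene Myh11 1 of 2081 bp, while the fibro-adipogenic gene Ly6a and the mural gene Rgs5 had none. The myofibre genes Acta1, Ckm and Myh4 had promoter peaks of 854, 1352 and 1024 bp. Within the genes, peaks covered 27.5% of Pecam1 with 14 peaks, the same share as at Yap1, and 31.9% of Cd68, 31.4% of Rgs5, 22.2% of Dcn, 21.5% of Acta1 and 11.1% of Pdgfra. In Kdr, Myh11, Ckm and Myh4 the share was 1.41%, 1.75%, 9.67% and 0.446%. Genes of other cell types were thus not free of peaks. Of 3 genes foreign to muscle, Neurod1 and Alb had no promoter peak and Ins2 had 1 of 1655 bp. The study also states that its sorted cells, when analysed again, fell short of full purity. The part of other cells in the peaks of the Hippo genes was not tested.

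Promoter sequence was available for 8 of the 10 genes, in 12 windows of 250 bases before and 50 bases after a RefSeq start site on GRCm38.p6 (Tead1 and Tead4 had no entry). Windows of 1 gene can overlap. The TEAD core GGAATG, searched on both strands, was present in 7 of the 12 windows and in 5 of the 8 genes (Yap1, Wwtr1, Tead3, Lats2 and Vgll3). The overlapping windows of Wwtr1 held the same copy, so the count of windows takes it more than once. Over all 32851 windows in the same table it was present in 14.7%, and in 16.6% of 27025 genes. The AP-1 letters TGANTCA and the E-box CAGCTG, also searched on both strands, were in none of the 12 windows, against 7.81% and 16.3% of all windows. The shares over all genes were 8.97% and 18.3%. With 8 genes nothing can be read from this absence, or from the higher share with a TEAD core. The GC content was 61.3% to 75.3% in 11 of the 12 windows and 42.7% in the other, a Lats2 window with no peak over it, against a median of 52.7% over all windows. The matches are shown because they place the letters read by TEAD factors at the promoters of genes that encode a TEAD factor, its coactivators, a cofactor and an upstream kinase. A match is a description of the letters and not a measured binding site. The sequences below are 5′ to 3′ on the strand of the gene, with the TEAD core on either strand in capitals. The first 3 are the 250 bases before a RefSeq start, and the last 2 are stretches of 30 bases around matches. All 5 lay wholly under H3K56ac peaks. They came from Yap1 (chr9:8004597-8004846, minus strand), Wwtr1 (chr3:57575911-57576160, minus strand), Vgll3 (chr16:65814939-65815188, plus strand), Tead3 (chr17:28350701-28350730, minus strand) and Lats2 (chr14:57746102-57746131, minus strand).
Yap1: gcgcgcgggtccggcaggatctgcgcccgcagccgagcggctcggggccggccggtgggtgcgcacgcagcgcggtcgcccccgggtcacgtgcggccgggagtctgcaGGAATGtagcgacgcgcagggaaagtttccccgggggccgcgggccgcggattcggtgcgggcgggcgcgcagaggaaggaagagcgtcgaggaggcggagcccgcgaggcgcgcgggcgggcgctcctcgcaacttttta
Wwtr1: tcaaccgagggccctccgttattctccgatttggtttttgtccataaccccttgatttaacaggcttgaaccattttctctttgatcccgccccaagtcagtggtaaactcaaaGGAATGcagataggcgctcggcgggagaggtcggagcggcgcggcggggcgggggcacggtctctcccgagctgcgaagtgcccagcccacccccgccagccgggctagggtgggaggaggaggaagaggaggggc
Vgll3: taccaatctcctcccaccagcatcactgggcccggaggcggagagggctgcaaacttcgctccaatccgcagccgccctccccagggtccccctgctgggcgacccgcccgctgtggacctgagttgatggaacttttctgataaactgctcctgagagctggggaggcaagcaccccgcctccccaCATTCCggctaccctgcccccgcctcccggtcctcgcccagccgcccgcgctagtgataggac
Tead3: ccgggctCATTCCgtaCATTCCggccatcc
Lats2: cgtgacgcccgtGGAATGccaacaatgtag
Counting from the start site, the first base of the core was at -141 in Yap1, -136 in Wwtr1 and -63 in Vgll3. The printed Tead3 stretch held 2 copies before the reference TSS. The same Tead3 window, with 3 copies in all, held another just past that TSS, and the window of a start further upstream held 1 at -182 from that start (chr17:28350970-28350999, also under a peak). The Lats2 copy began 4 bases past the start.

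Wwtr1 was the more heavily covered of the coactivator genes. Wwtr1 (ENSMUSG00000027803.14, chr3:57455649-57575910, minus strand, 120 kb) had 21 peaks, and they covered 74.7% of the gene. That share was higher than in 99.1% of the 1043 protein-coding genes within 20% of its length, whose median was 6.89%. Its promoter peak of 11892 bp (chr3:57565353-57577244) took in exons 1 and 2 and the promoter sequence printed above, and was wider than 97.8% of the promoter peaks of protein-coding genes. A second peak of 19799 bp (chr3:57530109-57549907), wholly inside intron 2, was the widest in any of the 10 windows. In all, 6 peaks of Wwtr1 reached 5 kb. The covered share was 82.1% in the first part of the gene when it was cut in 3 equal lengths, 82.8% in the middle part and 59.2% in the last. The 20 kb beyond its 3′ end had no peak.

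Yap1 (ENSMUSG00000053110.13, chr9:7931999-8004596, minus strand, 72.6 kb) had 15 peaks in the gene and 17 in the window. The promoter peak of 6722 bp (chr9:8001138-8007859) extended from -3271 to 3450 bp around the TSS and was wider than 88.2% of promoter peaks. Peaks covered 27.5% of the gene, above 86.3% of 1479 genes of similar length, whose median was 7.19%. This share was lower than the 74.7% of Wwtr1. Within Yap1 the peaks lay towards the 5′ side, with 53.5% of the first part covered, 29.0% of the middle part and 0% of the last. The 27087 bp at the 3′ end formed 1 stretch with no peak. The peak farthest along the gene that was wider than 3 kb, of 3707 bp (chr9:7960008-7963714), lay over exon 4.

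Tead1 carried the most peaks of the 4 TEAD genes. Tead1 (ENSMUSG00000055320.17, chr7:112679318-112906807, plus strand, 227 kb) encodes a TEAD factor that binds MCAT elements in muscle genes. It had 58 peaks in the gene and 67 in the window, and 7 of them reached 5 kb. Peaks covered 57.7% of the gene, above 98.5% of 468 genes of similar length, whose median was 4.87%. Intron 1, 79657 bp long, held 26 peaks that covered 78.5% of it. The peak over the TSS of the reference transcript was 5862 bp wide (chr7:112677775-112683636), above 84.3% of peaks at a reference TSS. The widest promoter peak, 12703 bp (chr7:112756327-112769029), lay instead over exon 2 and the internal start sites of shorter transcripts such as Tead1-202. Of its 13 annotated TSSs, 12 were under a peak. The last part of the gene was the least covered, with 18.7% against 77.6% in the first part and 76.7% in the middle.

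Tead3 (ENSMUSG00000002249.21, chr17:28331671-28350817, minus strand, 19.1 kb) was covered to 60.4%, above 97.1% of 2390 genes of similar length, with a median of 10.5%. That cover came from 2 peaks separated by 22 bp. The first, of 3582 bp, lay over the TSS (chr17:28347207-28350788), held the printed promoter site and was of ordinary width, above 53.1% of peaks at a reference TSS. The second, of 7988 bp (chr17:28339197-28347184), began 3416 bp past the TSS and reached over exons 2 and 3. The last part of Tead3 had no peak. The flanks of Tead3 held 9 further peaks, at promoters of Fance, Rpl10a and Tulp1, and these cannot be assigned to Tead3.

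Tead2 and Tead4 were the least covered of the 10 genes. Tead2 (ENSMUSG00000030796.17, chr7:45215753-45233644, plus strand, 17.9 kb), a TEAD gene best known from the early embryo, had 11.3% of its length under a peak. That was close to the median of 11.1% over 2411 genes of similar length. The peak over its TSS was 2921 bp wide (chr7:45214068-45216988), below the median of 3437 bp for peaks at a reference TSS. This peak also lay within 3 kb of a TSS of Dkkl1, another protein-coding gene. A second peak of 3025 bp (chr7:45232864-45235888) at the 3′ end also lay over the TSS of Cd37, a leukocyte tetraspanin gene, so its gene cannot be told from position. The middle part of Tead2 had no peak, and 7 of its 16 annotated TSSs were under one. Tead4 (ENSMUSG00000030353.15, chr6:128224288-128300823, minus strand, 76.5 kb), a TEAD gene known to act in myoblast differentiation, had 4 peaks. They covered 4.94% of it, below the median of 7.10% over 1399 genes of similar length. Its promoter peak of 2683 bp (chr6:128298978-128301660) was wider than 33.6% of promoter peaks. A stretch of 40765 bp inside Tead4 had no peak.

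**Figure D2:**
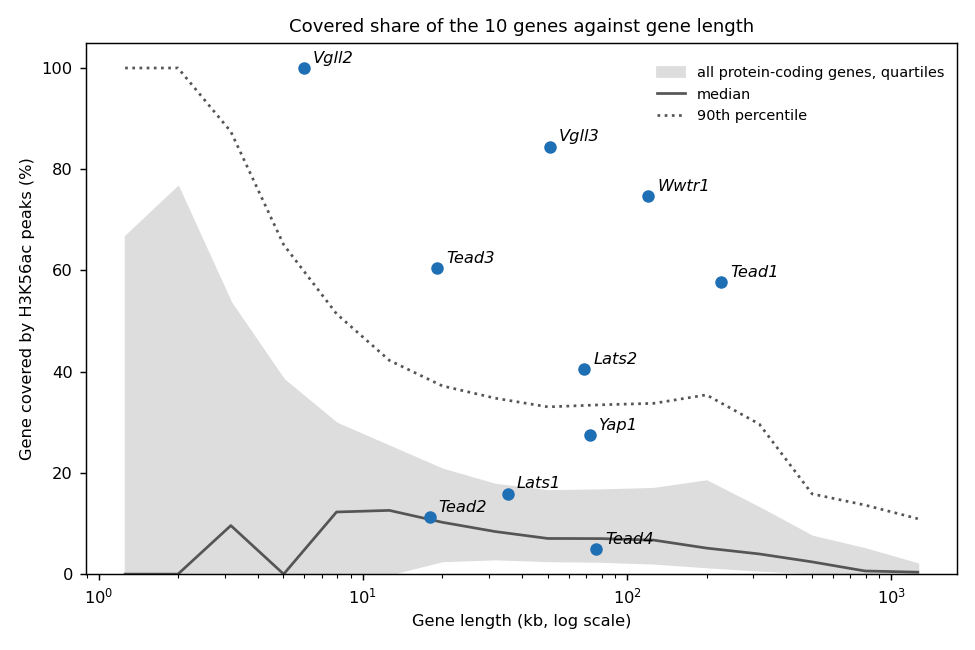
Covered share of each gene (y axis, % of the annotated gene) against its length (x axis, kb, log scale). Points are the 10 genes, and the grey band, solid line and dotted line are the quartiles, median and 90th percentile of all protein-coding genes in bins of length. Wwtr1, Tead1, Tead3, Lats2, Vgll2 and Vgll3 lie above the 90th percentile line, while Tead2 and Tead4 lie near the median.

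The kinase genes had wide promoter peaks and less cover further along the gene. Lats1 (ENSMUSG00000040021.13, chr10:7681214-7716460, plus strand, 35.2 kb) had a promoter peak of 8403 bp (chr10:7676579-7684981), wider than 93.6% of promoter peaks. This peak also lay over a TSS of Pcmt1, a protein repair methyltransferase gene, and its width cannot be assigned to Lats1 alone. The covered share of Lats1 was 15.9%, above 71.5% of 2223 genes of similar length, with a median of 8.34%. All of it lay in the first part of the gene, of which 47.6% was covered, and the last 25122 bp had no peak. The 20 kb upstream were covered to 60.3%, with peaks at the promoters of Pcmt1 and Nup43, a nuclear pore gene.

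Lats2 (ENSMUSG00000021959.16, chr14:57689662-57758388, minus strand, 68.7 kb) had 14 peaks over 40.5% of the gene, above 92.8% of 1535 genes of similar length, with a median of 7.01%. Its promoter peak was 7069 bp wide (chr14:57741396-57748464), above 89.6% of promoter peaks, and held the TEAD core printed above. The annotation also places the TSS of the readthrough gene Gm49361 under it. A second wide peak, of 6108 bp (chr14:57705093-57711200), lay 34923 to 41030 bp past the TSS in intron 2. Unlike Lats1, Lats2 was covered in all 3 parts, to 55.0%, 36.8% and 29.8% from first to last, and its flanks held little, with 3.02% upstream and 3.11% downstream.

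The VGLL genes had the highest covered shares. Vgll2 (ENSMUSG00000049641.14, chr10:52022502-52028471, plus strand, 5.97 kb) encodes a cofactor enriched in skeletal muscle. It lay wholly under 1 peak of 10641 bp (chr10:52022419-52033059) that took in all 3 exons and ran past the 3′ end. Among 2044 genes of similar length the median share was 0%, and 99.0% had a lower share than Vgll2. The next peak upstream, of 2033 bp, ended 4 bp before this peak. The flanks were covered to 35.5% upstream and 38.5% downstream and held no promoter of another protein-coding gene. Vgll3 (ENSMUSG00000091243.2, chr16:65815257-65866368, plus strand, 51.1 kb), whose product binds TEAD factors in myoblasts, had 18 peaks over 84.5% of the gene. That was above 99.7% of 1853 genes of similar length, with a median of 6.98%. Its promoter peak of 17267 bp (chr16:65813433-65830699) was the widest promoter peak of the 10 genes, above 99.3% of promoter peaks, and extended from -1824 to 15442 bp around the TSS over exons 1 and 2 and the whole of intron 1. The longest stretch of Vgll3 without a peak was 3312 bp.

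**Figure D3:**
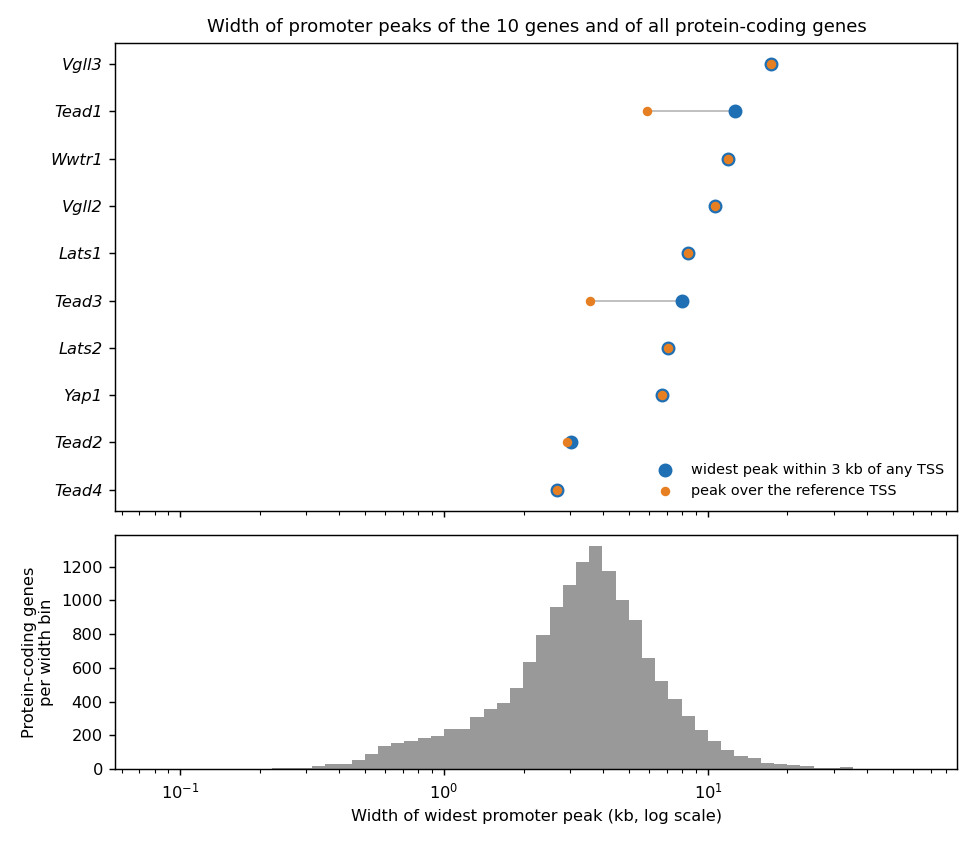
Upper panel, width of the widest promoter peak (large blue points) and of the peak over the reference TSS (small orange points) for each gene. Lower panel, number of protein-coding genes by width of the widest promoter peak, on the same x axis (kb, log scale). The widest promoter peaks run from 2683 bp at Tead4 to 17267 bp at Vgll3, and the 2 measures differ at Tead1, Tead3 and, least, Tead2.

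Across the 10 genes the widest promoter peak had a median of 8195.5 bp, against 3430 bp over the protein-coding genes that had such a peak, and was above that value at 8 of 10. At Tead1 this peak lay over internal start sites. At Tead2 and Tead3 it lay over no TSS of the gene and counted only through the 3 kb limit. At Tead3 the start sites within that limit belong to transcripts not annotated as protein-coding. Counting only the peak over the TSS of the reference transcript, a measure chosen after the values were seen, 10 of 10 genes had a peak, against 58.0% of protein-coding genes. That peak reached 5 kb at 7 of them, against 13.6%, and had a median of 6895.5 bp, against 3437 bp. Single peaks in the 10 windows had a median width of 1068 bp, close to the 974 bp of the whole list. The wide end differed more, since 22 of the 179 peaks, or 12.3%, reached 5 kb, against 6.00% of all peaks. Many peaks lay close to the next, and joining those less than 1 kb apart turned 179 peaks into 70. The widest promoter interval was then 46646 bp at Tead1, 22884 bp at Vgll2, 22694 bp at Vgll3 and 12836 bp at Tead3, but stayed at 2683 bp at Tead4, 3025 bp at Tead2 and 8403 bp at Lats1.

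Along most of the genes, cover was highest on the 5′ side. The first of 3 equal parts was covered more than each of the others at 8 of 10 genes. This was so at 72.0% of the 15151 protein-coding genes with any cover and at 49.7% of all protein-coding genes, so the share among the 10 genes was near that of other covered genes. The exceptions were Wwtr1, where the middle part was higher by less than 1 percentage point, and Vgll2, which was fully covered. Averaged over the 10 genes, 64.4% of the first part, 48.1% of the middle part and 30.7% of the last part were covered, against 28.8%, 12.9% and 9.36% over all protein-coding genes. Yap1, Tead3 and Lats1 had 0% in the last part, whereas Wwtr1, Vgll2 and Vgll3 had 59.2%, 100% and 81.0%. Of the 66 annotated TSSs of the 10 genes, 47 were under a peak. Start sites of a gene often lie close together under a shared peak, and the share over all annotated TSSs is not given here. Nothing particular to these genes is therefore read from this count, or from the counts of TSSs given above for Tead1 and Tead2. In the flanks, 15 peaks at Tead2, Tead3 and Lats1 lay at promoters of other protein-coding genes, and the windows of the remaining 7 genes held none of these.

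**Figure D4:**
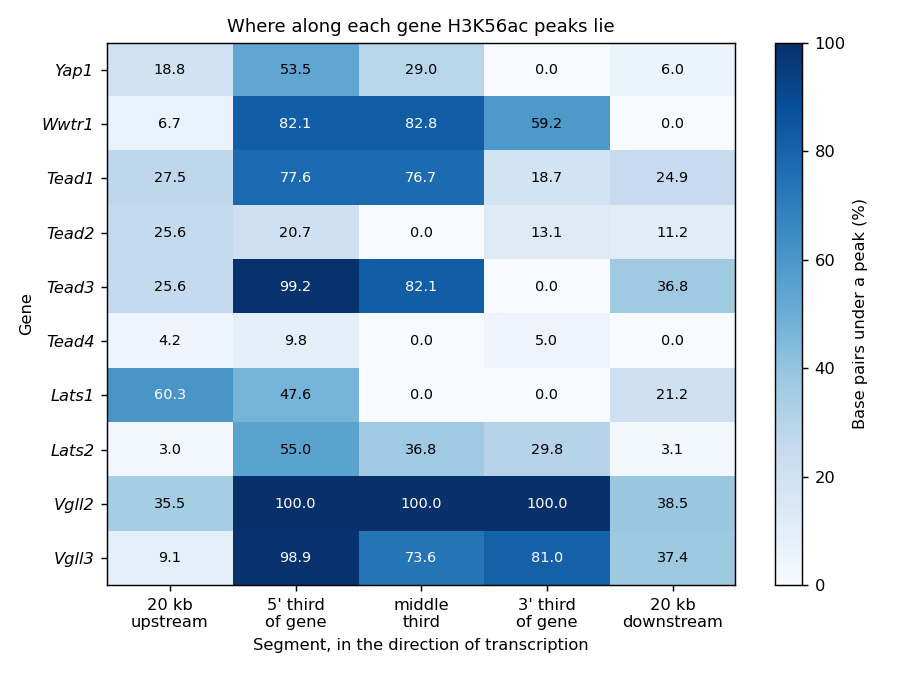
Percent of base pairs under a peak in 5 segments of each gene (columns, in the direction of transcription) for the 10 genes (rows), with the colour scale from 0 to 100%. Cover falls from the first to the last part in Yap1, Tead1, Tead3, Lats1 and Lats2, and stays above 59% through Wwtr1, Vgll2 and Vgll3.

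The peaks of these genes held the TEAD core about as often as other sequence. GGAATG on both strands occurred 0.590 times per kb in their peaks, 0.573 times per kb in the rest of their windows and 0.588 times per kb in all peaks of the list. The AP-1 letters TGANTCA occurred 0.312, 0.290 and 0.318 times per kb in the same order, and the E-box CAGCTG 0.567, 0.476 and 0.609 times. The GC content was 45.2%, 44.9% and 46.6%. TEAD and AP-1 factors are known to bind enhancers together, so pairs of these letters no more than 30 bp apart were listed, a choice made after the peaks were opened. The peaks of the 10 genes held 4 such pairs in 4 peaks, or 9.52 per Mb, against 12.1 per Mb over the 2227 pairs of all peaks. In 3 of the 4 pairs, 13 bases separated the motifs, a spacing noticed after the values were seen. Over all peaks 77 pairs, or 3.46%, had that gap, and with 4 pairs nothing can be read from the difference. All 4 lay in intron 1 of a TEAD gene. Peaks of Tead1 alone held 141.7 of the 420.0 covered kb, and with 4 pairs nothing can be read from this place either. The pairs are printed with both motifs in capitals, 5′ to 3′ on the plus strand of GRCm38. The Tead1 pairs are at chr7:112720224-112720289 and chr7:112745705-112745770, in peaks of 7226 and 8116 bp. The Tead3 pair is at chr17:28342560-28342625, in the peak of 7988 bp described above. The Tead4 pair is at chr6:128285905-128285960, in a peak of 646 bp.
Tead1 pair 1: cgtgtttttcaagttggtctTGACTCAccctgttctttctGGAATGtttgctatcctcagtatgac
Tead1 pair 2: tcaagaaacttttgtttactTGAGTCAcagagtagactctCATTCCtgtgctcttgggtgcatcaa
Tead3 pair: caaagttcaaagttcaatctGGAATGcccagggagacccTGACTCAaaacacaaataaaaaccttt
Tead4 pair: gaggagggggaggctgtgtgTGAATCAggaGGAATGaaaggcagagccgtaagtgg

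By median, other lists of pathway genes were covered less than these 10 genes but more than the typical gene, with ranges that overlapped. Upstream kinases and scaffolds pass signals to LATS, and all 12 examined (the genes of the MST kinases among them) had a promoter peak, which reached 5 kb at 5 of them. The median of their widest promoter peaks was 4928.5 bp, from 1602 bp at Wwc1 to 10512 bp at Map4k4, and the median covered share was 16.4%, from 3.37% at Wwc1 to 64.2% at Frmd6. Junction and polarity regulators, which hold YAP or act on LATS at the membrane, had a promoter peak at 11 of 11 genes, and it reached 5 kb at 6. Their median was 5238 bp, from 3120 bp at Amot to 16525 bp at Limd1, and the median covered share was 21.2%, from 7.01% at Amot to 94.6% at Amotl2. Of the other VGLL genes, Vgll4, whose product competes with YAP for TEAD factors, had a promoter peak of 21571 bp and a covered share of 64.4%. Vgll1 had no peak in its window.

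Genes known as targets of YAP and TAZ had narrower promoter peaks at the median. All 19 had a promoter peak. It reached 5 kb at 6 of them, and the median width of 3108 bp was below the 3430 bp of protein-coding genes. The range was 858 bp at Fjx1 to 10390 bp at Rbms3. Their median covered share was 27.4%, from 0.550% at Dock5 to 99.4% at Gadd45b, and they are short genes, with a median length of 11512 bp against 59919.5 bp for the 10 genes. Over the 44 genes of these 4 lists together, a promoter peak was found at 43, its width reached 5 kb at 18, and 10 genes were covered to at least 50%. Among other transcription factor families, Mef2a, Mef2b, Mef2c, Mef2d and Srf had a median promoter peak of 4735 bp, from 1257 bp at Mef2c to 17348 bp at Mef2d, and a median covered share of 18.9%. Runx1, Runx2, Runx3 and Cbfb had medians of 5342.5 bp, from 483 bp at Runx3 to 12985 bp at Cbfb, and 22.9%. Both families thus also held genes with wide and genes with narrow promoter peaks.

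**Figure D5:**
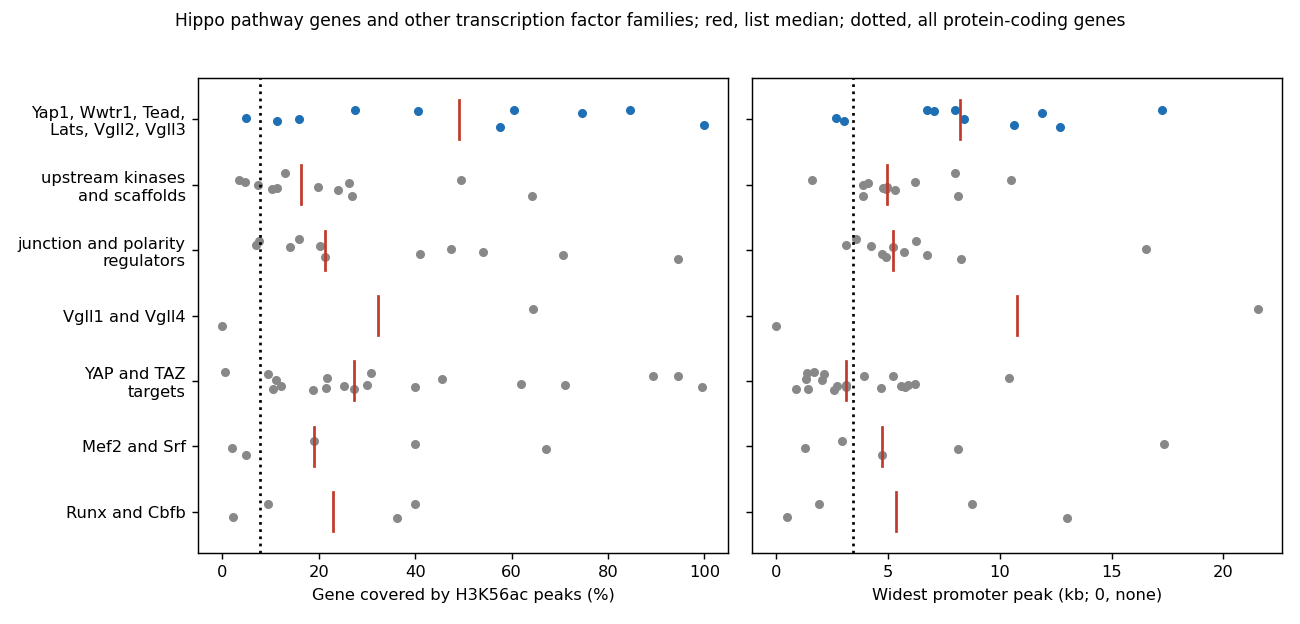
Covered share of the gene (left, %) and widest promoter peak (right, kb, 0 for none) for each gene of 7 lists. Points are genes, red bars are list medians and dotted lines are the medians of protein-coding genes (7.82% and 3430 bp, the latter over genes with a promoter peak). The 10 genes (blue) have a median share of 49.1%, and each list also holds genes close to or below the dotted lines.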

How the data were processed

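The authors trimmed ChIP-seq reads with Trim Galore, aligned them to mm10 with bowtie keeping single alignments, removed duplicates with Picard, called peaks with MACS2, dropped blacklisted regions and merged overlapping peaks. Reads from repeats are therefore under-represented. The deposited list holds chromosome, start and end, and its score column is 0 in every row, so the authors' score carries no measurement. The list gives no depth per library, the read totals the study states were not used here, and the list has 0 columns of values per sample.

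Peaks were set against GENCODE vM21 (GRCm38, the same build as mm10) in Python 3.11.15 with numpy 2.4.6. An overlap was at least 1 bp, a promoter was within 3 kb of any annotated TSS, and coordinates count from 1. The reference transcript was protein-coding, in the basic set, then APPRIS principal, then longest. A percentile is the percent of genes with a lower value, over protein-coding genes for covered shares and over those with such a peak for widths. Sequences came from RefSeq, and all promoter windows matched the genome. The functions were tested on simulated data. All 10 genes were named, and other lists were given by counts and extremes. Genes and lists were chosen with earlier results of these data known. No test was run. Protein sequences were not analysed here.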

Additional observations from a re-analysis of the deposited data

How the results depend on the processing

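No paired analysis was possible because the list gives no value per sample. Leaving out a replicate was not run for the same reason. The number of peaks in the windows was 179, and it was 139 without flanks, 219 with flanks of 50 kb, 152 with peaks of at least 500 bp only and 70 with peaks less than 1 kb apart joined. The covered share of the windows was 38.4%, and under the same alternatives it was 49.1%, 27.9%, 37.3% and 41.2%. All 10 genes kept a promoter peak under each alternative tried for that count. The median widest promoter peak, 8195.5 bp, was 7736 bp with promoters of 1 kb or with TSSs of protein-coding transcripts only, in both cases because Tead3 then counts its peak of 3582 bp. It was 13275 bp with peaks joined and 6895.5 bp at the reference TSS, an alternative added after the data were seen. Comparing each gene with those within 50% of its length moved its percentile by at most 0.825 points. The union of libraries sets where a peak ends, and how strong a peak was in any library is unknown here.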
